A study of Arabidopsis thaliana with 6 samples.

Results

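The plastid genome of Arabidopsis thaliana was followed in non-green and green seeds, taking every row of the deposited gene table whose identifier begins with ATCG. These were 133 of 32678 rows, made up of 88 protein genes, 8 ribosomal RNA genes and 37 transfer RNA genes by the gene model types in the table. Reads were counted on 104 of the 133 rows, namely 84 of the 88 protein genes, 5 of the 8 ribosomal RNA genes and 15 of the 37 transfer RNA genes, and the other 29 rows held no count in any of the 6 libraries.

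RNA was sequenced from 3 libraries of non-green (yellow) seeds, labelled with the genotype Atchlsyn1-1, and from 3 libraries of green seeds, labelled Atchlsyn1-1/CHLSYN. Atchlsyn1-1 is a mutant allele of the gene for chlorophyll synthase, which attaches the phytol tail to chlorophyll, and by their label the green seeds carry it beside a wild-type allele. The sources used here do not say whether green seeds without the mutant allele were among them. Both kinds of seed segregate within siliques, were sorted from each other after removal and frozen with no dissection named, so the seed coat, a maternal tissue, is part of both; plants grew at 22 °C in 16 h of light and 8 h of dark. Titles of the yellow seed libraries also hold the word photosynthetic, while the design text calls these seeds not photosynthetically competent. The sources used here do not give the seeds' age, how many plants went into a library or any selection of RNA by its tail. Nothing in the labels ties a library to a separate growth or plant, and the spread that the p-values rest on may therefore be technical.

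The plastid genome is a remnant of a cyanobacterial genome. It encodes core subunits of the photosystems, of the cytochrome b6f complex, of the ATP synthase and of the NADH dehydrogenase-like (NDH) complex, the large subunit of Rubisco, part of the plastid ribosome and the core of its own RNA polymerase. Most other plastid proteins are encoded in the nucleus, so each of these complexes is assembled from the products of both genomes. Plastid genes are read by a bacterial-type polymerase (PEP), which needs nuclear sigma factors, and by phage-type polymerases from the nucleus (NEP). Long transcripts of several genes are then cut, spliced and edited. In oilseed embryos the plastids are green for part of seed filling and also house fatty acid synthesis.

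Each library held between 16438639 and 16745514 counts, and plastid-encoded rows took 0.0394% to 0.0541% of them. The chlorophyll synthase gene itself (CHLSYN, AT3G51820, on chromosome 3) had 11, 6 and 9 counts in non-green libraries 1, 2 and 3, against 46, 50 and 65 in green libraries 1, 2 and 3, and was lower in non-green seeds (edgeR adjusted p = 1.32e-09). The same order of libraries is kept throughout. Over all 17239 tested genes, 14.2% were called higher and 12.5% lower in non-green seeds. Of the 4 seed markers, all with counts, 1 was called higher and 2 lower, with a summed level of 173593 to 182882 counts per 1000000 counts (CPM) in non-green and 202211 to 210881 CPM in green libraries. Most of that sum was CRU3, with a mean of 147905 CPM in non-green and 173406 CPM in green libraries. CRU3 and SESA1 were called lower and OLEO1 higher, and ABI3 did not pass. Seed coat markers were lower in non-green seeds for 5 of the 9 tested of 10, with a summed level of 653 to 654 CPM in non-green and 891 to 948 CPM in green libraries. Most of the seed coat sum was TT10, with a mean of 532 CPM in non-green and 725 CPM in green libraries. Of 8 endosperm markers 3 were tested and 2 were lower, with 4.32 to 5.30 CPM in non-green and 7.40 to 11.2 CPM in green libraries, and PHE1 was at 0. Of 7 silique wall markers 5 were tested and 2 were higher, with 88.4 to 105 CPM in non-green and 84.9 to 91.4 CPM in green libraries, and FUL was at 0. The part of these tissues in the plastid results was not tested. In a bulk sample, fewer cells of a type and less RNA per cell cannot be told apart.

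A small number of plastid genes held nearly all plastid counts. The gene psbA, for the D1 protein of photosystem II, held 54.0% of the counts of all 133 rows, and the leading 10 rows held 90.6%. In total counts over the 6 libraries, 34 rows had 1 to 9 counts, 49 had 10 to 99 and 21 had 100 or more. Only 30 rows, 26 protein genes and 4 ribosomal RNA genes, had enough counts to enter the test by edgeR's filterByExpr. The other 103 rows, 29 of them with no count, did not pass this filter, and sums over groups of genes are given for them. Fitted without the filter, the 104 rows with counts gave the same 6 calls as the test below.

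**Figure D1:**
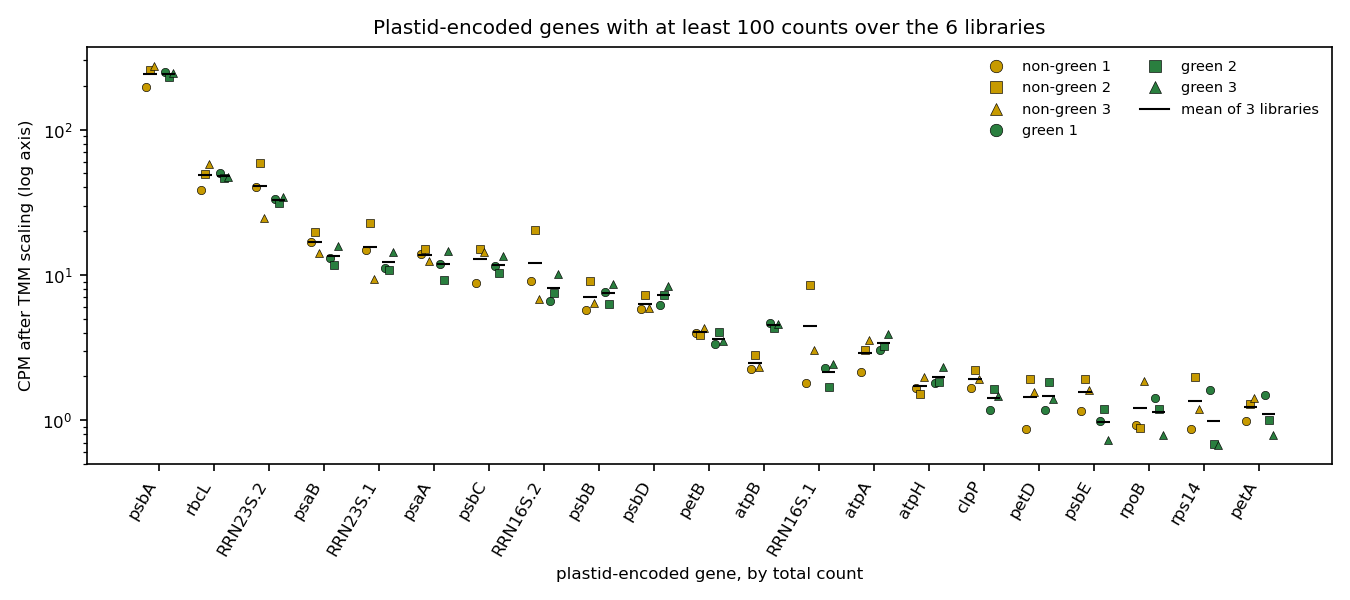
CPM after TMM scaling (vertical, log axis) of the 21 plastid-encoded genes with 100 or more counts, ordered by total count, with one point per library (yellow for non-green, green for green, with marker shapes for replicates 1, 2 and 3) and bars at the group means. The points of psbA lie far above all other genes, atpB is the gene whose non-green points all lie below its green ones, and non-green 2 is the highest point of all 4 ribosomal RNA rows (RRN16S.1, RRN16S.2, RRN23S.1 and RRN23S.2).

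Of the 30 tested plastid genes, 5 were higher and 1 was lower in non-green seeds at an edgeR quasi-likelihood adjusted p under 0.05, and 24 did not pass. The 5 were psaB, for a core protein of photosystem I, and both copies of the 16S and of the 23S ribosomal RNA genes, and the 1 was atpB, for the β subunit of the ATP synthase. The share called, 20% of 30, lay below the 26.6% of all 17239 tested genes that were called (14.2% higher and 12.5% lower). The copies of the 16S and of the 23S gene are identical, yet each copy is a row of its own here. With the counts of such copies added up, 28 rows were tested, of which 3 were called higher and 1 lower. Of the protein genes alone, 2 of 26 (7.69%) were called. Non-green and green libraries did not overlap in CPM for 2 of the 30 rows, atpB and clpP, against 37.3% of all tested genes. The median log2 fold change was 0.08 over the 30 rows and 0.00 over all tested genes, and the median size of the fold change without its sign was 0.20 over the 30 rows and 0.19 over all tested genes.

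**Figure D2:**
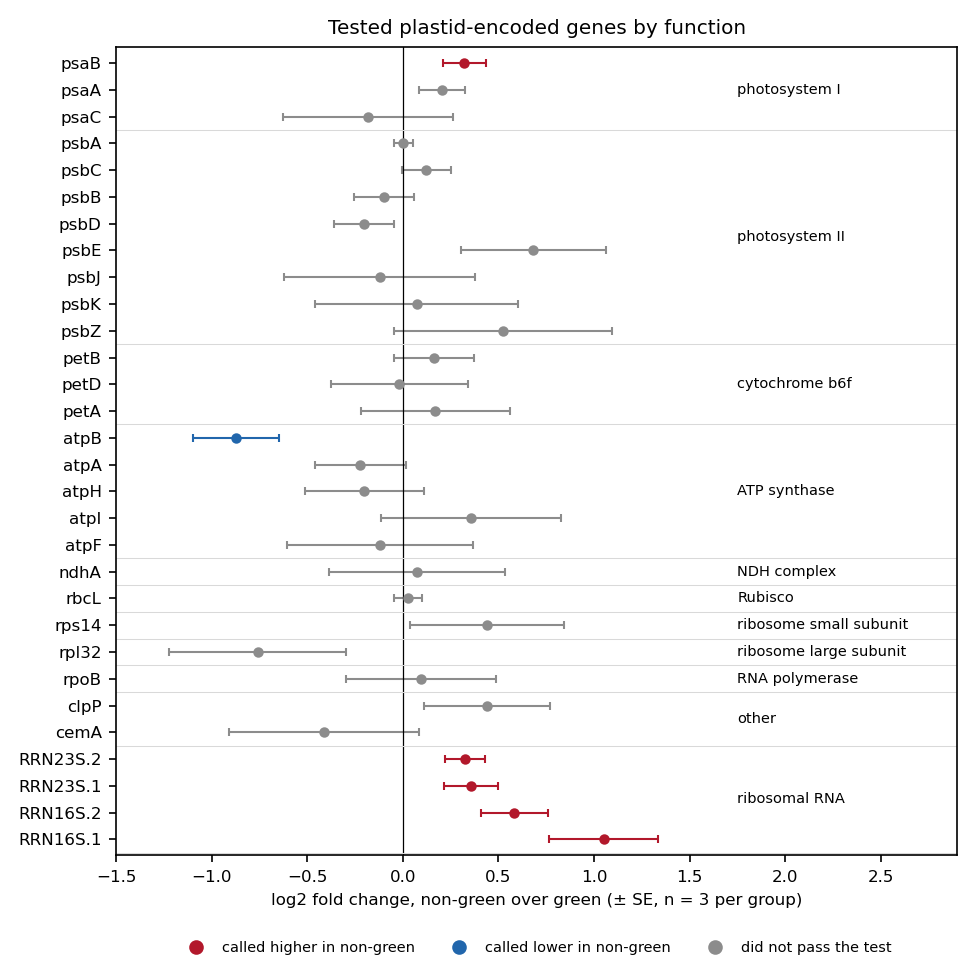
Log2 fold change of non-green over green seeds with its SE (horizontal, n = 3 per group) for the 30 tested plastid genes, grouped by function, in red where called higher, in blue where called lower and in grey where the test was not passed. The genes psbA and rbcL, with the most counts, lie at 0.00 and 0.03, atpB lies at -0.88, and the wide error bars belong to genes with few counts.

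The difference that held under every setting was in atpB (ATCG00480, named PB in the table, at Pltd:52660-54156 on the minus strand in TAIR10.1), whose product carries the catalytic sites of the ATP synthase of the thylakoid. It had 39, 48 and 39 counts in non-green libraries, against 75, 69 and 75 in green libraries, so every non-green library lay below every green one. In CPM this is 2.46 ± 0.30 in non-green and 4.51 ± 0.17 in green seeds (SD, n = 3 each). The log2 fold change was -0.88 ± 0.22 (SE, edgeR adjusted p = 0.00142). It stayed lower in non-green seeds with each library left out (log2 fold change -0.98 to -0.82) and under all 8 other settings tried. In the authors' deposited table, atpB was the only 1 of the 58 plastid rows with an adjusted p that was under 0.05, with a log2 fold change of -0.716 and an adjusted p of 0.00146. No 50-base window of the atpB coding sequence occurs a second time in the RefSeq genome of TAIR10.1.

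On the plastid genome atpB and atpE, which encodes the ε subunit, share 4 bases on the same strand. The junction at Pltd:52624-52699, minus strand, RefSeq TAIR10.1, is shown because both genes lie on one transcript and the stop codon of atpB lies in the start of atpE, with the shared bases in capitals.
atpB/atpE: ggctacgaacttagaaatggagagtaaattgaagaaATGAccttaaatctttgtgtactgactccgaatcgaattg
Downstream of this junction, atpE had 7, 4 and 3 counts in non-green libraries and 5, 7 and 6 in green libraries. The groups overlap and the row was below the filter, and fitted without it atpE did not pass (log2 fold change -0.44 ± 0.82, SE, edgeR adjusted p = 0.775).

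The other plastid-encoded ATP synthase genes did not pass the test. The α subunit gene atpA had 37, 52 and 60 counts in non-green and 49, 52 and 64 in green libraries (log2 fold change -0.22 ± 0.24, SE, edgeR adjusted p = 0.552). The gene atpH, for the c subunit of the membrane ring, had 29, 26 and 33 counts in non-green and 29, 29 and 38 in green libraries (-0.20 ± 0.31). In both genes the groups overlap. The remaining plastid-encoded subunits of the membrane part, atpI and atpF, had log2 fold changes of 0.36 ± 0.47 and -0.12 ± 0.49. Summed over the 6 ATP synthase rows, there were 133, 169 and 151 counts in non-green and 184, 172 and 208 in green libraries, which do not overlap. Without atpB the sums were 94, 121 and 112 in non-green and 109, 103 and 133 in green libraries, which do.

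Photosystem I transcripts gave the only protein gene called higher. The gene psaB encodes one of the paired core proteins that bind the P700 chlorophylls (ATCG00340, Pltd:37375-39579, minus strand). It had 291, 339 and 236 counts in non-green and 210, 186 and 260 in green libraries, 16.9 ± 2.86 CPM in non-green and 13.5 ± 2.17 CPM in green seeds (SD, n = 3 each). The groups overlap, since non-green 3 lies below green 3, and the log2 fold change was 0.32 ± 0.11 (SE, edgeR adjusted p = 0.0241). The call was lost in 4 of the 6 fits that left out a library (without green 1 or 2 and without non-green 1 or 2), with fold changes from 0.19 to 0.45, and with DESeq2 (adjusted p = 0.0982).

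Its partner psaA, which lies directly before psaB on the same strand, had 240, 257 and 209 counts in non-green and 193, 148 and 238 in green libraries. With 0.21 ± 0.12 on the log2 scale (edgeR adjusted p = 0.219), it did not pass. The longest run of bases that psaA and psaB share is 32. The iron-sulphur subunit gene psaC had 10, 15 and 14 counts in non-green and 16, 12 and 14 in green libraries (log2 fold change -0.18 ± 0.45). Summed over the 7 photosystem I rows, which include the assembly factor genes ycf3 and ycf4, there were 556, 631 and 485 counts in non-green and 430, 361 and 525 in green libraries. Without psaB the sums were 265, 292 and 249 in non-green and 220, 175 and 265 in green libraries, and the groups overlap in both sums.

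Photosystem II held most of the plastid counts, and its 8 tested rows did not pass the test. The D1 protein gene psbA (ATCG00020, Pltd:383-1444, minus strand) had 3413, 4401 and 4617 counts in non-green and 4030, 3696 and 4031 in green libraries. Non-green 1 was the lowest of the 6 libraries and non-green 3 the highest, so the spread between non-green libraries was wider, with 243 ± 41.0 CPM in non-green and 242 ± 9.37 CPM in green seeds (SD, n = 3 each). The log2 fold change was 0.00 ± 0.05 (SE, edgeR adjusted p = 0.977). Leaving out non-green 1 gave 0.13 with an adjusted p of 0.0187, the one setting in which psbA was called.

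The D2 protein gene psbD and the CP43 antenna gene psbC are read from one transcript and overlap by 53 bases. The stretch at Pltd:33684-33808, plus strand, RefSeq TAIR10.1, is given because a read inside the shared bases, in capitals, can be counted for either gene.
psbD/psbC: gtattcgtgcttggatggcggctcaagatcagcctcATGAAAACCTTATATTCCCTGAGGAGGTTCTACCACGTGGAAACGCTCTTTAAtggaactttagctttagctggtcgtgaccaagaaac
In non-green libraries psbD had 101, 125 and 99 counts, against 101, 116 and 137 in green libraries (log2 fold change -0.20 ± 0.16, SE, edgeR adjusted p = 0.386). The neighbour psbC had 153, 259 and 243 counts in non-green and 187, 164 and 219 in green libraries (0.12 ± 0.13). The groups overlap for both genes.

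The CP47 antenna gene psbB had 100, 155 and 107 counts in non-green and 124, 101 and 142 in green libraries (log2 fold change -0.10 ± 0.16). The cytochrome b559 subunit gene psbE, with 20, 33 and 27 counts in non-green and 16, 19 and 12 in green libraries, had the largest positive log2 fold change among the tested protein genes (0.68 ± 0.38, SE), which did not pass the test (edgeR adjusted p = 0.193). The genes of the small subunits psbJ, psbK and psbZ had 48 to 63 counts each over the 6 libraries and log2 fold changes from -0.12 to 0.53, with errors of 0.50 to 0.57. Without psbA, the 14 other photosystem II rows summed to 408, 617 and 523 counts in non-green and 468, 429 and 546 in green libraries. These sums overlap between the seed colours.

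The summed CPM of the other photosynthesis complexes overlapped between the groups as well. The Rubisco large subunit gene rbcL (ATCG00490, Pltd:54958-56397, plus strand), second to psbA in counts, had 670, 850 and 975 counts in non-green and 815, 739 and 768 in green libraries (log2 fold change 0.03 ± 0.07, SE, edgeR adjusted p = 0.843). As with psbA, non-green 1 was the lowest and non-green 3 the highest of the 6 libraries. Of its 50-base windows 14.5% occur again in the mitochondrial or nuclear genome of TAIR10.1, as do 7.70% of those of psbA, so some of their reads may have matched in several places.

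Among the cytochrome b6f genes, petB, for cytochrome b6, had 69, 66 and 72 counts in non-green and 54, 64 and 57 in green libraries (log2 fold change 0.16 ± 0.21, edgeR adjusted p = 0.639). The counts of petB do not overlap between the groups, but its CPM do. The genes petA, for cytochrome f, and petD, for subunit IV, had log2 fold changes of 0.17 ± 0.39 and -0.02 ± 0.36. Among the 12 rows of the NDH complex, which carries cyclic electron flow, all had counts but only ndhA was tested (0.07 ± 0.46). The 12 rows together had 61, 61 and 68 counts in non-green and 52, 54 and 63 in green libraries. The groups overlap because green 3 lies above non-green 1 and 2.

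**Figure D3:**
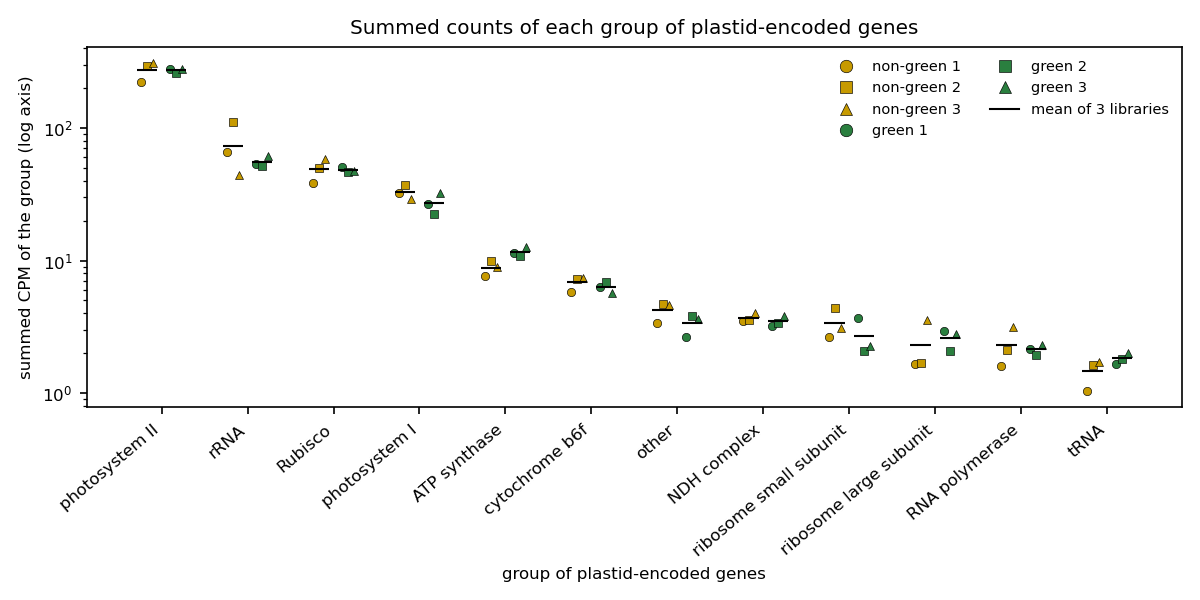
Summed CPM of each group of plastid-encoded genes (vertical, log axis) in every library, yellow for non-green and green for green, with bars at the group means. Of the 12 groups, the ATP synthase is the only one whose non-green and green points do not overlap.

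Genes of the plastid's own expression had few counts. The polymerase core genes rpoB, rpoC1, rpoC2 and rpoA encode the β, β′, β″ and α subunits of PEP, and of these only rpoB reached the filter. It had 16, 15 and 31 counts in non-green and 23, 19 and 13 in green libraries (log2 fold change 0.09 ± 0.39). In rpoC1 there were 8, 11 and 7 counts in non-green and 6, 7 and 9 in green libraries. For rpoA the counts were 3, 7 and 13 in non-green and 3, 5 and 2 in green libraries, and for rpoC2 they were 1, 3 and 2 in non-green and 3, 0 and 14 in green libraries. The 4 genes together gave 28, 36 and 53 counts in non-green and 35, 31 and 38 in green libraries, with overlapping groups.

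All 26 rows of ribosomal proteins had counts, and 2 were tested. The small-subunit gene rps14, which follows psaB in the same transcript, had 15, 34 and 20 counts in non-green and 26, 11 and 11 in green libraries (log2 fold change 0.44 ± 0.40). The large-subunit gene rpl32 had 13, 4 and 14 counts in non-green and 24, 11 and 15 in green libraries (-0.76 ± 0.47, edgeR adjusted p = 0.245). The 26 rows summed to 75, 104 and 112 counts in non-green and 108, 66 and 83 in green libraries. Both genes and the sum overlap between the groups.

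Of the remaining protein genes, clpP, for a subunit of the Clp protease, had 29, 38 and 32 counts in non-green and 19, 26 and 24 in green libraries. The groups do not overlap, yet the log2 fold change of 0.44 ± 0.33 (SE) did not pass (edgeR adjusted p = 0.365). The envelope protein gene cemA had a log2 fold change of -0.41 ± 0.50. The gene accD, for the plastid-encoded subunit of acetyl-CoA carboxylase in fatty acid synthesis, was below the filter with 12, 8 and 5 counts in non-green and 6, 1 and 8 in green libraries. The large gene ycf1, for an envelope protein assigned to protein import, had 7, 4 and 4 counts in non-green and 2, 5 and 2 in green libraries, and the ycf2 copies, for another envelope protein, had 2, 3 and 5 counts together in non-green and 1, 2 and 5 in green libraries. Fitted without the filter, accD did not pass (log2 fold change 0.64 ± 0.72, SE, edgeR adjusted p = 0.627), nor did any other row below it.

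The 62 protein rows below the filter, 58 of them with counts, summed to 171, 202 and 228 counts in non-green and 157, 149 and 181 in green libraries, or 11.7 ± 1.86 CPM in non-green and 10.03 ± 0.913 CPM in green seeds (SD, n = 3 each). The groups overlap, as green 3 lies above non-green 1. The protein rows with no count were psbL, petN, petL and the second copy of ycf15. All 88 protein rows summed to 5504, 7075 and 7185 counts in non-green and 6267, 5719 and 6414 in green libraries, which is 386 ± 60.1 CPM in non-green and 379 ± 18.2 CPM in green seeds. Green libraries all lie between the lowest and the highest non-green library.

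Per length, on the authors' RPKM scale (reads scaled by gene length and library total), psbA stood at 234 ± 37.1 in non-green and 222 ± 11.7 in green seeds (SD, n = 3 each). It ranked 182 among the 22695 genes of the table with a value, by its mean level over the 6 libraries. Rubisco's rbcL followed at 34.7 ± 6.51 RPKM in non-green and 32.4 ± 1.86 RPKM in green seeds, at rank 1949. The next protein genes by level were psbC, at 9.22 ± 2.44 RPKM in non-green and 8.04 ± 1.14 RPKM in green seeds, and atpH, at 7.15 ± 0.864 RPKM in non-green and 7.83 ± 1.22 RPKM in green seeds. These neighbours do not differ beyond their spread. In level atpB ranked 22 among the protein and ribosomal RNA rows, at 1.68 ± 0.21 RPKM in non-green and 2.94 ± 0.15 RPKM in green seeds. Above it stood atpH, psaB, psbD, petB and psaA, and also genes with fewer counts such as rpl32 and rps14.

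The calls of the ribosomal RNA rows in non-green seeds rested on few libraries. The genes for 16S and 23S ribosomal RNA lie in the inverted repeat, and the 16S copies (1491 bases) and the 23S copies (2810 bases) differ at 0 bases in TAIR10.1, so reads cannot be told apart by copy. The first 16S row (ATCG00920, Pltd:101012-102502, plus strand) had 31, 146 and 51 counts in non-green and 37, 27 and 40 in green libraries (log2 fold change 1.05 ± 0.28, SE, edgeR adjusted p = 0.00258). The second (ATCG01210, Pltd:136147-137637, minus strand) had 158, 350 and 115 counts in non-green and 107, 119 and 167 in green libraries (0.58 ± 0.17, adjusted p = 0.00702). In both rows non-green 2 is far above all others and the remaining libraries of the 2 colours overlap.

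The first 23S row (ATCG00950, Pltd:104691-107500, plus strand) had 257, 388 and 157 counts in non-green and 182, 173 and 237 in green libraries (log2 fold change 0.36 ± 0.14, SE, edgeR adjusted p = 0.0471). The second (ATCG01180, Pltd:131149-133958, minus strand) had 695, 1009 and 414 in non-green and 536, 501 and 561 in green libraries (0.32 ± 0.11, adjusted p = 0.0145). Non-green 2 was the highest and non-green 3 the lowest of the 6 libraries in both rows. Without non-green 2 the log2 fold changes were 0.17 and -0.022 for the 16S rows and -0.013 and -0.025 for the 23S rows, and the edgeR adjusted p ran from 0.773 to 0.963. The first 23S row also lost its call without green 1 (adjusted p = 0.184), green 2 (0.130) or non-green 1 (0.0792) and with RLE scaling (0.0513), and the second 16S row without green 1 (0.0892). With a robust estimate of the spread between libraries, which gives genes with an outlying library a larger error, none of the 4 rows passed (adjusted p from 0.388 to 0.611), and none passed with DESeq2 (0.366 to 0.690).

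Added up over both copies, 16S reads were 189, 496 and 166 in non-green and 144, 146 and 207 in green libraries, and 23S reads were 952, 1397 and 571 in non-green and 718, 674 and 798 in green libraries. The second copy held 69.3% to 83.6% of the 16S counts and 70.3% to 74.7% of the 23S counts of a library, although the copies are identical; the sources used here do not say how the authors placed reads with 2 matches. The rows of the small ribosomal RNAs (103 bases for 4.5S and 121 bases for 5S) held almost no counts. There were 2 counts of 4.5S RNA, both in green 1, and no count on the other 3 rows of 4.5S and 5S RNA. Whether this reflects the level of these RNAs was not tested.

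The same library was high in ribosomal RNA of all genomes of the cell. Nuclear ribosomal RNA rows had 11369, 26286 and 9216 counts in non-green and 9624, 9193 and 11762 in green libraries, and mitochondrial ones had 3273, 4467 and 2596 in non-green and 3173, 3033 and 3147 in green libraries. In each, as in the plastid, non-green 2 was the highest and non-green 3 was below the mean of green. Plastid protein genes did not follow this pattern, since non-green 3 was the highest library there. The part that ribosomal RNA carried over into the libraries plays in the plastid 16S and 23S calls was not tested.

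**Figure D4:**
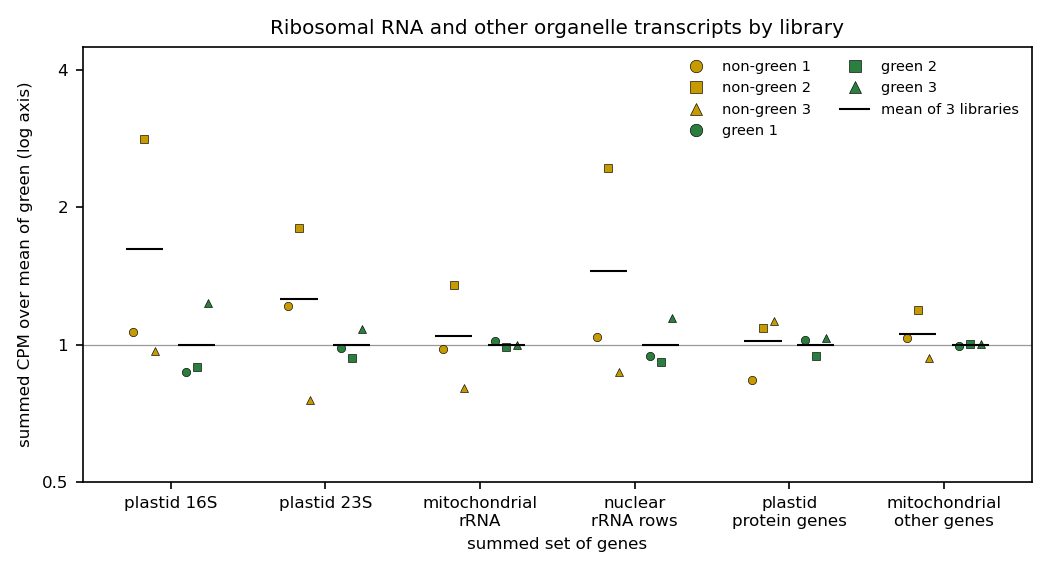
Summed CPM relative to the mean of the 3 green libraries (vertical, log axis) for plastid 16S and 23S ribosomal RNA, mitochondrial and nuclear ribosomal RNA, plastid protein genes and the other mitochondrial genes, with one point per library and bars at the group means. Non-green 2 (yellow square) is the highest library in all 4 ribosomal RNA sets. The other non-green points overlap the green ones for plastid and nuclear ribosomal RNA and lie below them for mitochondrial ribosomal RNA.

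Transfer RNA rows had few counts, and none passed the filter. They summed to 18, 28 and 29 counts in non-green and 27, 29 and 33 in green libraries, and 22 of the 37 rows had none. Only 5 rows had 18 to 39 counts over the 6 libraries, and the other 10 with counts had 1 to 5. The sequences of these 5 are shown from RefSeq TAIR10.1 because 4 of them have an intron, with the second exon in capitals, and the fifth is a single exon.
TRNL.1 (tRNA-Leu): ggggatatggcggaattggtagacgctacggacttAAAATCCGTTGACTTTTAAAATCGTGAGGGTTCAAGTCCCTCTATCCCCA
TRNV.1 (tRNA-Val): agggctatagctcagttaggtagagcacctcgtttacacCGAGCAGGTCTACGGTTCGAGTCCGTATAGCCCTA
TRNG.1 (tRNA-Gly): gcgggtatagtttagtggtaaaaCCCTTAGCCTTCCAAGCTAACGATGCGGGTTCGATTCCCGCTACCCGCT
TRNK (tRNA-Lys): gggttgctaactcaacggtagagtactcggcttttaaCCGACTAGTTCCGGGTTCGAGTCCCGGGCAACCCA
TRNS.2 (tRNA-Ser): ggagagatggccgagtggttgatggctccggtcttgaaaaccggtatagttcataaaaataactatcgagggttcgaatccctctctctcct
These genes span 597 bases (Pltd:46894-47490, plus strand), 673 bases (Pltd:51199-51871, minus), 786 bases (Pltd:8646-9431, plus), 2631 bases (Pltd:1717-4347, minus) and 92 bases (Pltd:35312-35403, minus) in the order shown. The lengths implied by the authors' RPKM values are those of the mature RNAs, 72 to 92 bases, and the sources used here do not say whether intron reads were counted. The intron of the tRNA-Lys gene holds matK, for a splicing factor.

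By library, TRNL.1 had 0, 5 and 8 counts in non-green and 10, 8 and 8 in green libraries. For TRNV.1 the counts were 0, 5 and 3 in non-green and 5, 9 and 6 in green libraries. TRNG.1 had 5, 6 and 3 counts in non-green and 2, 3 and 3 in green libraries, TRNK had 2, 4 and 7 in non-green and 0, 2 and 3 in green libraries, and TRNS.2 had 6, 5 and 3 in non-green and 5, 4 and 6 in green libraries. Non-green 1 had no count of tRNA-Leu or tRNA-Val. After scaling to CPM all non-green libraries lay below all green ones in these 2 rows, as in 18.1% of all tested genes. Before scaling the groups meet in both, at 8 counts for TRNL.1 and at 5 counts for TRNV.1. The seed colours overlap in the other 3 rows. Without the filter, TRNL.1 had a log2 fold change of -1.05 ± 0.73 (SE, edgeR adjusted p = 0.374) and TRNV.1 of -1.36 ± 0.92 (adjusted p = 0.354). Neither passed there or with DESeq2 (adjusted p = 0.470 and 0.405).

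**Figure D5:**
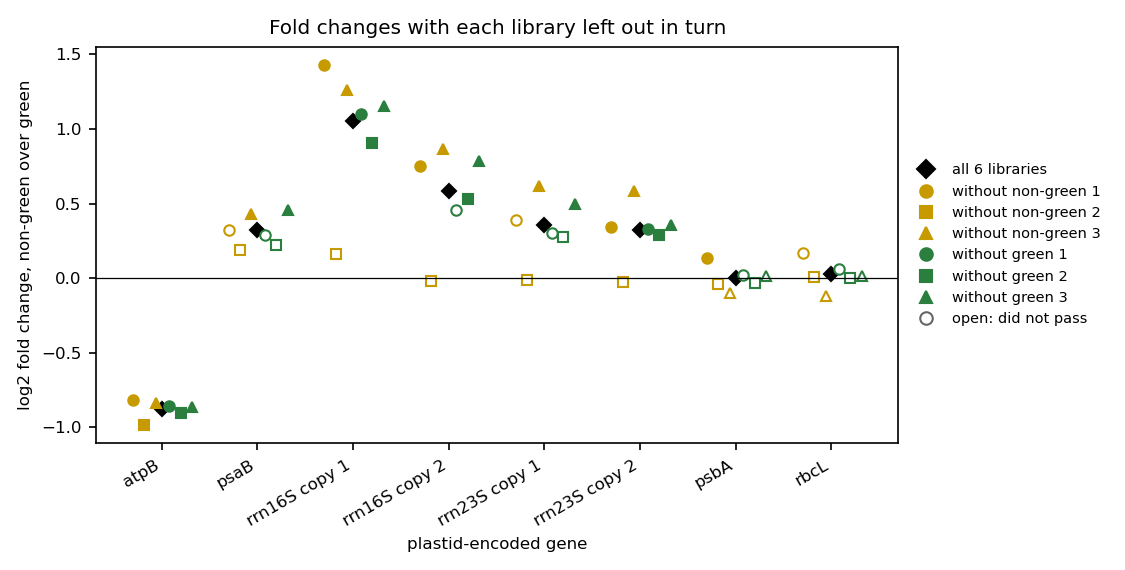
Log2 fold change of non-green over green seeds (vertical) for the 6 called plastid genes and for psbA and rbcL, from all 6 libraries (black diamonds) and with each library left out in turn (yellow where a non-green library was left out, green where a green one was), with filled marks where the edgeR test was passed and open marks where not. All 6 marks of atpB are filled and below 0, while the marks without non-green 2 (yellow squares) are open for psaB and the 4 ribosomal RNA rows.

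The nuclear genes that serve plastid transcription were compared as a list of 21, of which 20 had enough counts to test. In non-green seeds 2 rose and 18 did not pass, against 26.6% of all tested genes called in either direction. Their median was 0.05 on the log2 scale, against 0.00 over all tested genes, and the sigma factor gene SIG4 had no counts. The sigma factor gene SIG5, whose product directs PEP to light-responsive promoters such as that of psbD, had 881, 844 and 796 counts in non-green and 488, 504 and 544 in green libraries. The groups do not overlap. The log2 fold change was 0.63 ± 0.07 (SE, edgeR adjusted p = 2.96e-13), and the call held in all 14 other fits. Its known target psbD did not pass the test, as given above. The gene PAP2 (PTAC2), for a protein attached to PEP, had 93, 109 and 123 counts in non-green and 79, 68 and 72 in green libraries. Its 0.49 ± 0.18 on the log2 scale (edgeR adjusted p = 0.0302) lost the call in 5 of the 14 other fits. Of the NEP genes, RPOTp, with 111, 95 and 117 counts in non-green and 110, 74 and 98 in green libraries, overlapped between the groups (0.12 ± 0.17). RPOTmp leaned lower, with 260, 238 and 212 counts in non-green and 317, 247 and 242 in green libraries, which also overlap. It did not pass (-0.26 ± 0.11, SE, edgeR adjusted p = 0.0614) but was called in 3 of the 14 other fits.

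Nuclear partners of plastid-encoded subunits were called in both directions. In the ATP synthase, the gene of the b′ subunit (ATPG, named PDE334) was called higher, with 1179, 1304 and 1207 counts in non-green and 909, 951 and 882 in green libraries (log2 fold change 0.35 ± 0.06, SE, edgeR adjusted p = 2.68e-07). The δ subunit gene ATPD fell, with 181, 156 and 162 counts in non-green and 207, 217 and 173 in green libraries (-0.34 ± 0.12, adjusted p = 0.0318), and lost its call in 6 of the 14 other fits. The γ subunit gene ATPC1 did not pass (0.05 ± 0.09). None of these tests compared the genes with each other or with atpB.

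For Rubisco, the small subunit gene RBCS1A rose slightly, with 7192, 7229 and 7320 counts in non-green and 6221, 6299 and 6361 in green libraries (log2 fold change 0.12 ± 0.04, SE, edgeR adjusted p = 0.00638), beside the 0.03 ± 0.07 of rbcL. Its call was lost without non-green 3 (adjusted p = 0.0576). RBCS3B lay the other way, with 13, 12 and 12 counts in non-green and 20, 20 and 21 in green libraries. It did not pass (log2 fold change -0.80 ± 0.42, SE, edgeR adjusted p = 0.162), and RBCS1B and RBCS2B were below the filter. The RBCS genes are near-identical copies, and their counts can be split between them. All 4 nuclear genes of plastid acetyl-CoA carboxylase, the partners of accD, rose, with log2 fold changes of 0.40 ± 0.04 (CAC2), 0.57 ± 0.08 (BCCP1), 0.43 ± 0.05 (BCCP2) and 0.44 ± 0.04 (CAC3). Their edgeR adjusted p ran from 3.78e-15 (CAC3) to 1.37e-09 (BCCP1). Over all tested genes, 14.2% were called higher. The values of accD itself, which did not pass, are given above.

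As the other genome of an organelle, the mitochondrion had 146 rows, whose sums were 4064, 5370 and 3287 counts in non-green and 3884, 3739 and 3872 in green libraries. The edgeR test called 0 of its 21 tested rows, against 26.6% of all tested genes, with 2 at an unadjusted p under 0.05. DESeq2 called 0 of 87, with 1 at an unadjusted p under 0.05. Over the 14 other fits, DESeq2 among them, the mitochondrial calls ran from 0 to 2, reaching 2 without non-green 2 or without non-green 3. The plastid sum over 133 rows was 6663, 8996 and 7951 counts in non-green and 7158, 6568 and 7452 in green libraries, or 461 ± 71.3 CPM in non-green and 436 ± 22.6 CPM in green seeds (SD, n = 3 each). In both organelles the non-green libraries lie on both sides of the green ones. The ratio of the plastid sums, non-green over green, was 1.06 with all libraries and 0.983 without non-green 2.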

How the data were processed

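For each of 6 libraries the authors deposited counts of reads per gene and RPKM values. Bowtie 0.12.2 and the build TAIR10 are named in the submitters' processing notes. The sources used here do not say how reads were counted, whether by strand, or what was done with reads that match in several places. The authors' deposited table also holds log2 fold changes and p-values of their own comparison, a mean signal and a test score, of which the last pair was not used. Counts were tested with edgeR 4.0.16 (quasi-likelihood, TMM factors 0.959 to 1.04, filterByExpr by group, two-sided) over 17239 genes, with Benjamini-Hochberg adjustment over all of them and a threshold of 0.05, in R 4.3.3 with limma 3.58.1. The common biological coefficient of variation was 5.68%. SE is the log2 fold change over the square root of F. CPM are per 1000000 counts after TMM scaling. RPKM gave lengths and levels only.

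Sums were compared by library, with no test. DESeq2 1.42.0, other scalings and filters, a replicate block and each library left out were alternatives. The fit was tested on simulated data. Rows were matched to RefSeq TAIR10.1 by name and length (92 of 100 within 0.5%). Every tested row was named, and of the others polymerase, accD, ycf1, ycf2 and ribosomal RNA genes; further rows with few counts were picked after their values were seen. Members and lists were chosen with earlier results of these data known.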

Additional observations from a re-analysis of the deposited data

How the results depend on the processing

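The lower call of atpB was made in all 14 other fits, the log2 fold change of which ran from -0.98 to -0.82 with a library left out. The count of plastid genes called higher, 5 by the main test, was 1 (psaB) with a robust spread and 3 with the counts of inverted-repeat copies added up, both chosen after seeing the data, and 0 with DESeq2, which had 2 of 104 rows at an unadjusted p under 0.05. With each library left out it ran from 0 to 6: 2 without green replicate 1, 3 without green replicate 2 and 0 without non-green replicate 2, where 1 row, atpB, was at an unadjusted p under 0.05. With each library left out, the log2 fold change of the second 16S row (RRN16S.2) ran from -0.022 to 0.86, that of RRN23S.1 from -0.013 to 0.62 and that of RRN23S.2 from -0.025 to 0.58, in each case lowest without non-green replicate 2. Among the nuclear genes of plastid transcription, the 2 higher calls became 1 with DESeq2 and ran from 1 to 2 with a library left out, and the lower calls ran from 0 to 2. The log2 ratio of the summed protein genes was 0.03 and became 0.23 over the rows below the filter alone; the cause was not tested.

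No shared deviation was seen between same-numbered libraries: their deviations from the group means correlated at 0.01, 0.00 and -0.00. The labels do not say whether the numbers stand for pairs, and a low correlation cannot exclude it. With the replicate block 4 plastid genes were called higher and 1 lower, with the first 23S row lost (adjusted p = 0.0524). Scaling by total counts alone moved the median of all genes to 0.08 and called the same 6 plastid rows. Low counts limit the rest: 29 of 133 rows had no count, and the filter left out 74 more. Why these rows had few or no reads was not tested.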
